A study of Mus musculus with 4 samples.

Results

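The 9 genes described here mark injured or repairing kidney tubules: Lcn2, Havcr1, Clu, Spp1, Vcam1, Cd44, Sox9, Sox4 and Anxa1. They were chosen by symbol, and all 9 were found in a row of their own among the 37981 gene loci of the deposited tables. The RNA came from inner medullary collecting duct (IMCD) cells, an epithelium from the end of the collecting duct system, taken from C57B/l mice with floxed Tgfbr2 (the gene of the TGF-β type II receptor, TβRII) and immortalized with psv40. All 4 libraries thus share the floxed allele and the immortalization. The TβRII-/- population had received adeno-Cre, whereas the TβRII fl/fl population had no such treatment, and receptor loss and exposure to virus or Cre cannot be told apart. Both populations were grown with serum or for 4 days without it, and each condition gave 1 library. No difference given here has a replicate check, and both media used the same 2 cell populations.

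Injured tubule cells lose their specialized functions and switch on a shared set of genes. Some of these encode secreted proteins that reach the urine and serve as markers of kidney damage (lipocalin 2, also called NGAL, clusterin and osteopontin), some encode surface proteins (KIM-1, VCAM-1, CD44), and some encode transcription factors of repair (SOX9, SOX4). In the kidney KIM-1 is known best from the injured proximal tubule, whereas lipocalin 2 is also made by distal tubule and collecting duct.

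The libraries were comparable in breadth, with 11680 to 12172 loci at 1 FPKM or more (FPKM is a level scaled to transcript length and library size). The labels give 30000000 reads of 50 bp per library. Tgfbr2 itself was 57.0 FPKM (TβRII-/-) against 163 FPKM (TβRII fl/fl) with serum, and 73.7 FPKM against 143 FPKM in serum-starved medium. This value covers the whole gene and does not show whether the floxed part was lost. Of 19 markers of collecting duct and tubular epithelium, 10 reached 1 FPKM in each TβRII fl/fl library and 7 and 8 in the serum-replete and serum-starved TβRII-/- libraries. Tfcp2l1, a collecting duct transcription factor (64.7 to 97.8 FPKM), and Hoxb7 (35.1 to 54.0 FPKM) were present in all 4, but Aqp2, the vasopressin-regulated water channel that defines the principal cell, was listed at 0 in all 4. Aqp3, Aqp4, Avpr2, Slc14a2, Scnn1b, Elf5 and Epcam were also below 1 FPKM in all 4. Scnn1g, Cdh1 and Krt8 reached 1 FPKM only in TβRII fl/fl libraries, and Gata3, counted in a joined locus, only in those of TβRII-/- cells. Summed, the 19 markers came to 391 and 344 FPKM in the serum-replete and serum-starved TβRII-/- libraries, and to 736 and 595 FPKM in those of TβRII fl/fl cells. Krt8 made up much of this gap (0.229 against 251 FPKM with serum and 0.133 against 142 FPKM without), and Krt18 and Tfcp2l1 were higher in TβRII-/- libraries. These markers and the next lists are named here as a check of the label, outside the rule for named genes. Markers of other cell types that could carry these injury markers were summed over each list. The 5 endothelial markers reached at most 0.102 FPKM, 6 fibroblast markers at most 2.96 FPKM and 8 leukocyte markers 12.5 to 20.3 FPKM. The leukocyte sum was above the level of Sox9 in all 4 libraries. It was above those of Havcr1 and Vcam1 in all but the serum-replete TβRII fl/fl library. Cd3e, Cdh5 and Emcn were listed at 0 in every library, and most of the leukocyte sum came from Csf1r (2.94 to 15.2 FPKM) and Cd68 (3.18 to 11.8 FPKM). The summed level of 7 proximal tubule markers moved with genotype, at 7.71 FPKM in TβRII-/- and 53.7 FPKM in the TβRII fl/fl library with serum, and 21.7 FPKM and 101 FPKM in the serum-starved libraries. Aqp1 (0.904 and 20.3 FPKM with serum) and Ggt1 (0.0553 and 30.7 FPKM) carried the sum in TβRII fl/fl cells. Lrp2 (5.61 and 2.18 FPKM with serum, 20.4 and 4.19 FPKM without) and Cubn (1.13 and 0.369 FPKM with serum) went the other way, and Lrp2 made up most of the sum in TβRII-/- cells. Slc34a1 and Slc22a6 were listed at 0 in all 4. The part of any of these in the results was not tested.

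Sequences upstream of the start are shown for the 3 genes with the largest genotype ratios in serum-replete medium and for Anxa1, which went the other way. RefSeq promoter windows of GRCm38.p6 on the chromosome of the gene itself were at hand for 6 of the 9 genes, 9 windows in all. The 250 bases before the start were searched on both strands for 5 motifs, AP-1 (TGANTCA), C/EBP (TTGCNNAA), STAT (TTCNNNGAA), the TATA box (TATAAA) and the NF-κB motif. Capitals mark the matches, which do not overlap each other. Lcn2 lies on the minus strand (chr2:32387740-32387989), as does Anxa1 (chr19:20390672-20390921). Havcr1 lies on the plus strand (chr11:46750261-46750510, of its 3 windows the only window with a match). Spp1 also lies on the plus strand (chr5:104434861-104435110, the first of its RefSeq starts). The windows shown for Havcr1 and Spp1 were thus not picked by the same rule.
Lcn2: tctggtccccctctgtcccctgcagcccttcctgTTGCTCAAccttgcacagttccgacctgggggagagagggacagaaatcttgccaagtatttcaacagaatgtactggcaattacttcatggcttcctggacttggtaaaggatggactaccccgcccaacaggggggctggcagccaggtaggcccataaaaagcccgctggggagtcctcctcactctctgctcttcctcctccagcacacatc
Havcr1: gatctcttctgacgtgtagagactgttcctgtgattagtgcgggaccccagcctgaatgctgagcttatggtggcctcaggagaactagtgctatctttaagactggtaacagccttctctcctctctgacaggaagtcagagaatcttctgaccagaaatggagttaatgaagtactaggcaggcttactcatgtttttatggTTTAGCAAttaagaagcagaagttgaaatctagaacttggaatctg
Spp1: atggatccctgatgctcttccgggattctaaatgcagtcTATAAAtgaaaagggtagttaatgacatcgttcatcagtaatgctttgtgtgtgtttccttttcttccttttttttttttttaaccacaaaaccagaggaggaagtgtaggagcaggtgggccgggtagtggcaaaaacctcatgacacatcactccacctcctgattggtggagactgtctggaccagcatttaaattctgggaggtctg
Anxa1: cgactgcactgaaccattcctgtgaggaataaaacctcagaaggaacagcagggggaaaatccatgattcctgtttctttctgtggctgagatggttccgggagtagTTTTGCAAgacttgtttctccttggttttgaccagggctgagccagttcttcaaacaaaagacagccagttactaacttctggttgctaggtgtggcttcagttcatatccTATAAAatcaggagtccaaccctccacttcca
The C/EBP letters were found in 4 of the 9 windows (Lcn2, Anxa1, 1 of 3 windows of Havcr1 and 1 of 2 of Spp1), against 9.56% of 32851 windows of all genes, and the TATA letters in 2 of 9 against 12.4%. In Lcn2 the C/EBP match ran from base -216 to base -209, counted from the start. The TATA letters ran from base -32 to base -27 in Anxa1, but from base -211 to base -206 in Spp1. The STAT, AP-1 and NF-κB letters, which 7.02%, 6.75% and 3.90% of all windows hold, were in none of the 9. In GENCODE the windows shown for Lcn2, Havcr1 and Anxa1 lie within the gene, since other transcripts of each begin further upstream. A match is a description of the letters and not a bound site.

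The 3 secreted markers were at least 2-fold lower in TβRII-/- cells with serum, and of these Spp1 was also 2-fold lower without. Lcn2, which encodes an iron-siderophore binding protein and lies on chromosome 2 (32384633 to 32387797 in mm10, as are all positions given for the tables), was 613 FPKM (TβRII fl/fl) against 63.2 FPKM (TβRII-/-) in serum-replete medium. Without serum it was 12.8 FPKM in TβRII fl/fl and 7.61 FPKM in TβRII-/- cells. The serum-replete TβRII fl/fl library stood far above the other 3, and there Lcn2 ranked 122 from the top of all loci. Genotypes are compared throughout as log2 of (FPKM + 1) in TβRII-/- over that in TβRII fl/fl cells, which for Lcn2 was -3.26 with serum and -0.68 without. In bulk RNA, fewer cells that express a gene and less RNA per cell cannot be told apart.

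Spp1 (chromosome 5, 104435118 to 104441050), the gene of osteopontin, a ligand of integrins and of CD44, was among the most abundant RNAs of these cells. It was 21791 FPKM (TβRII fl/fl) against 2140.0 FPKM (TβRII-/-) in serum-replete medium, and 5947 FPKM against 1607 FPKM in serum-starved medium. It ranked between 9 and 38 from the top in the 4 libraries. TβRII fl/fl cells were higher in both media, with log2 ratios of -3.35 with serum and -1.89 without. The 9 genes together, Spp1 being the most abundant, took 2.27% of the FPKM sum of the serum-replete TβRII fl/fl library, against 0.328% to 0.602% in the other 3.

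Clu (chromosome 14, 65968483 to 65981548), the gene of the secreted chaperone clusterin, was 2282 FPKM (TβRII fl/fl) against 895 FPKM (TβRII-/-) in serum-replete medium. Without serum it was 433 FPKM and 222 FPKM. It followed the same order of libraries as Lcn2 over a narrower range, with log2 ratios of -1.35 with serum and -0.96 without, the latter just short of the 2-fold line.

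**Figure D1:**
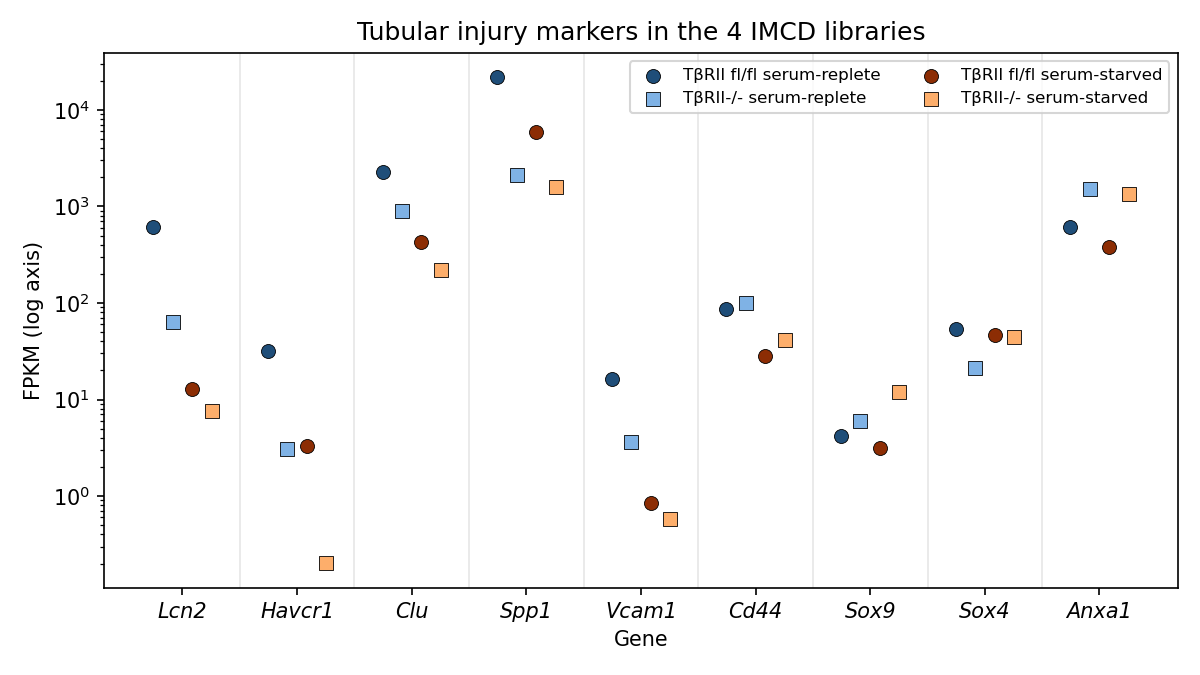
FPKM of the 9 genes (horizontal axis) on a log axis (vertical axis), with 1 point per library and no error, since each condition is 1 library. Circles are TβRII fl/fl and squares TβRII-/- cells, blue with and brown or orange without serum. Lcn2 spans 7.61 to 613 FPKM, and Spp1 is at least 1607 FPKM in every library.

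Surface proteins did not behave alike. Havcr1 (chromosome 11, 46735080 to 46779578), the gene of KIM-1, a phosphatidylserine receptor that lets tubule cells take up dead cells, was 32.01 FPKM (TβRII fl/fl) against 3.04 FPKM (TβRII-/-) in serum-replete medium. Without serum it was 3.29 FPKM and 0.201 FPKM. The highest value was again that of serum-replete TβRII fl/fl cells, and the genotype ratio was large in both media, at log2 -3.03 and -1.84. The pseudocount shrinks the latter: the plain ratio of FPKM was 16.3-fold without serum and 10.5-fold with it. The lowest value rests on few reads, about 12.0 against about 191 in TβRII fl/fl cells, if the longest GENCODE transcript of 2030 bases and fragments of 200 bases are assumed.

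Vcam1 (chromosome 3, 116110020 to 116129688), an adhesion molecule for α4 integrins that marks proximal tubule cells after failed repair, was 16.4 FPKM (TβRII fl/fl) against 3.62 FPKM (TβRII-/-) in serum-replete medium, a log2 ratio of -1.91. Without serum it was 0.855 FPKM and 0.573 FPKM, under the minimum of 1 FPKM, and no ratio was called. Vcam1 thus differed by 2-fold between genotypes with serum, and both serum-starved libraries were low. Cd44 (chromosome 2, 102811141 to 102901665), a receptor for hyaluronan and osteopontin, was 86.7 FPKM (TβRII fl/fl) against 99.7 FPKM (TβRII-/-) in serum-replete medium, and 27.9 FPKM against 41.7 FPKM in serum-starved medium. Unlike its ligand Spp1 it was not lower in TβRII-/- cells, with log2 ratios of 0.20 and 0.56, neither of which reached 2-fold.

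Of the transcription factors, Sox9 (chromosome 11, 112782224 to 112787760), which is switched on in tubule cells that repair injury, was 4.18 FPKM (TβRII fl/fl) against 5.96 FPKM (TβRII-/-) in serum-replete medium. Without serum it was 3.15 FPKM and 11.9 FPKM. The serum-starved TβRII-/- library was the highest of the 4, and the log2 ratio was 1.64 without serum and 0.43 with it. Sox4 (chromosome 13, 28943048 to 28953713), a SoxC factor of progenitor cells, was 54.0 FPKM (TβRII fl/fl) against 21.0 FPKM (TβRII-/-) in serum-replete medium, a log2 ratio of -1.32. Without serum it was 47.0 FPKM against 44.0 FPKM (log2 ratio -0.09), so the serum-replete TβRII-/- library was the one that stood apart.

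Anxa1 (chromosome 19, 20373428 to 20390944) encodes annexin A1, a phospholipid-binding protein that dampens inflammation through formyl peptide receptors. It was 613 FPKM (TβRII fl/fl) against 1522 FPKM (TβRII-/-) in serum-replete medium, and 381 FPKM against 1346 FPKM in serum-starved medium. Both TβRII-/- libraries were above both TβRII fl/fl libraries, with log2 ratios of 1.31 and 1.82. In GENCODE, noncoding genes overlap Spp1, Vcam1, Cd44, Sox4 and Anxa1, those of the last 4 on the opposite strand, and the sources used here do not give whether counting used strand. Sox4 lies on the minus strand and ends at 28948919 in GENCODE, and its locus in the tables ran past this end to 28943048.

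Counted together, 6 of the 9 genes were lower by 2-fold or more and 1 was higher by 2-fold or more in TβRII-/- cells with serum. Over all 12635 loci compared in that medium, 18.1% differed by at least 2-fold, made up of 11.1% lower and 7% higher. Without serum, 2 of 8 genes compared were lower (Havcr1 and Spp1) and 2 were higher (Sox9 and Anxa1), against 14.7% of 12687 loci, 6.64% lower and 8.02% higher. The median log2 ratio of the genes was -1.35 with serum and -0.38 without, where that of all loci was -0.03 and 0.03. Havcr1 and Spp1 were lower in both media, as were 4.56% of the 12162 loci compared in both, and Anxa1 was higher in both, as were 2.97%. Lcn2, Clu and Sox4 were lower in serum-replete medium without reaching 2-fold in serum-starved cells, as were 5.25% of these loci. How far the genotype ratio differed between the media was not tested; as values, it was closer to 0 without serum by 2.58 for Lcn2 and 1.46 for Spp1 on the log2 scale. For Havcr1 the direction of this difference turned with the pseudocount, since the ratio was -1.84 without and -3.03 with serum at a pseudocount of 1, but -3.49 and -3.35 at 0.1.

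**Figure D2:**
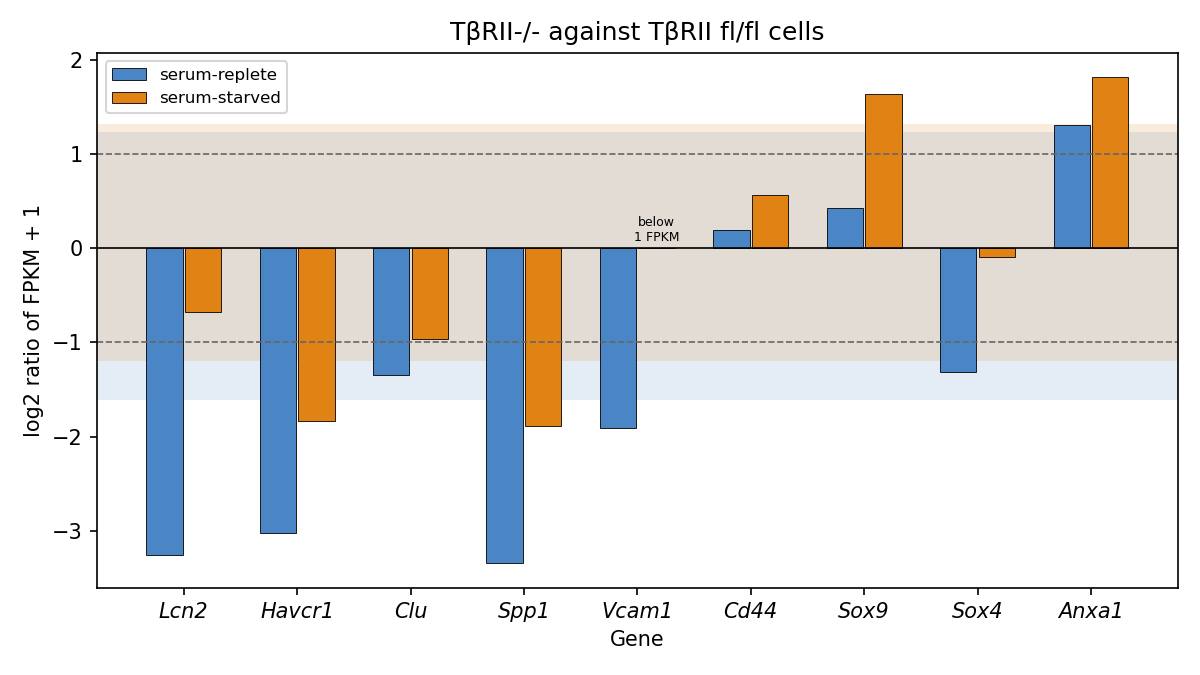
Log2 of (FPKM + 1) in TβRII-/- over TβRII fl/fl cells (vertical axis) for each gene, in serum-replete (blue) and serum-starved (orange) medium, with 1 library per condition. Shading spans the 5th to the 95th percentile of all loci compared in that medium, and dashed lines mark 2-fold. Lcn2, Havcr1 and Spp1 lie below -3 with serum, and Anxa1 lies above 1 in both media.

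Withdrawal of serum was read within each genotype. The 2 media were scaled in separate tables, so levels are set side by side, and the median log2 ratio of all loci was 0.02 in TβRII fl/fl and 0.13 in TβRII-/- cells. In TβRII fl/fl cells all 9 genes had lower values without serum, and 6 of them were at least 2-fold lower. Over all 12583 loci, 6.52% differed by at least 2-fold, 3.77% lower and 2.76% higher. Lcn2 had the largest ratio of the 9, at log2 -5.48, and 0.278% of all loci lay below it. It was followed by Vcam1 at -3.23, Havcr1 at -2.95, Clu at -2.39, Spp1 at -1.87 and Cd44 at -1.60. The values for Anxa1 (-0.68), Sox9 (-0.32) and Sox4 (-0.20) were short of 2-fold.

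In TβRII-/- cells, 5 of 9 genes were at least 2-fold lower without serum and Sox4 was at least 2-fold higher, against 13.9% of 12327 loci, 5.92% lower and 8.02% higher. The 5 were Lcn2 (-2.90), Clu (-2.01), Havcr1 (-1.75), Vcam1 (-1.55) and Cd44 (-1.24). The values of Havcr1 and Vcam1 depend on the pseudocount, being -3.38 and -2.47 at 0.1, where Havcr1 passes Lcn2 (-3.04). Spp1 was short of 2-fold at -0.41, as were Anxa1 at -0.18 and Sox9 at 0.89. The ratio of Sox4 was 1.03, and with the ratios centred on their median it was 0.90, which leaves no gene higher and 5 lower. Cd44 was thus 2-fold lower without serum in both genotypes but not different by 2-fold between genotypes, and Anxa1 was the reverse. The comparisons of genotype and of serum share libraries, so they are not separate evidence.

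**Figure D3:**
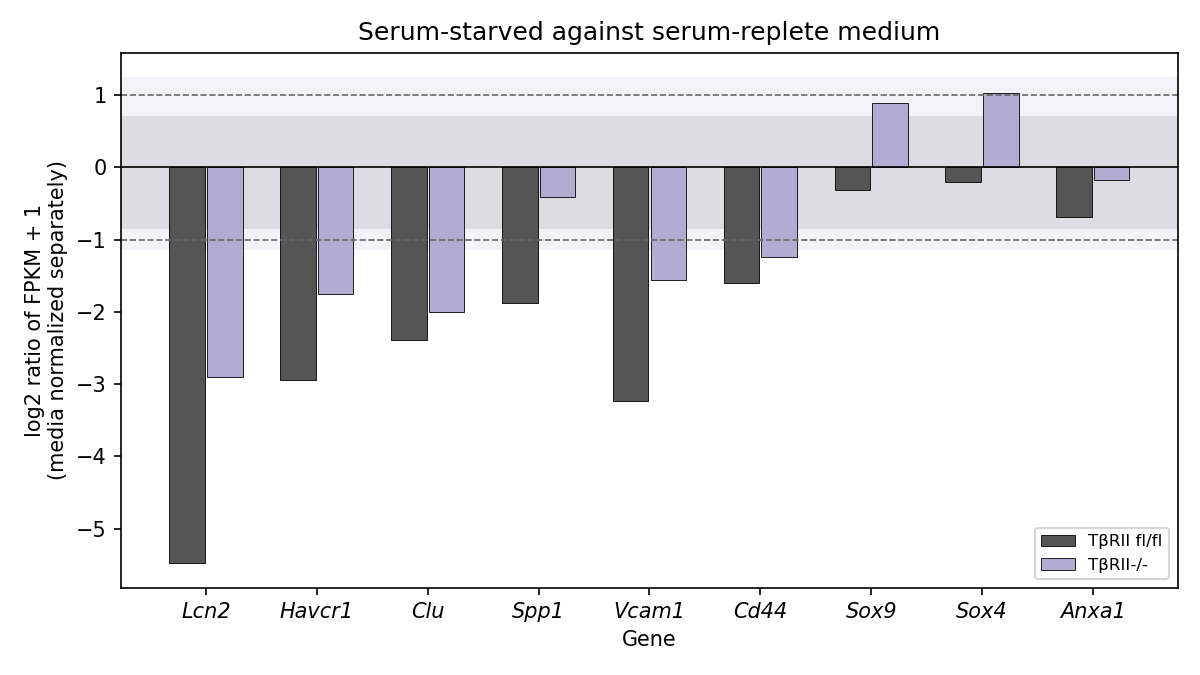
Log2 ratio of FPKM + 1 in serum-starved to serum-replete medium (vertical axis) for each gene, in TβRII fl/fl (grey) and TβRII-/- (purple) cells, with 1 library per condition and media scaled in separate tables. Shading spans the 5th to the 95th percentile of all loci, and dashed lines mark 2-fold. Grey bars are below 0 for all 9 genes and reach -5.48 for Lcn2, whereas Sox9 and Sox4 have purple bars above 0.

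Further markers of injury, kidney stress or failed repair went both ways. Of 27 genes listed, 23 were compared with serum, and 8 were at least 2-fold higher and 6 at least 2-fold lower in TβRII-/- cells, with a median log2 ratio of 0.56. Without serum 9 of 22 were higher and 4 lower, with a median of 0.77. The shares over all loci, against which this and the next lists are to be read, were 7% higher and 11.1% lower with serum, and 8.02% and 6.64% without. Krt20, a keratin that appears in injured tubules, was 8.73 FPKM (TβRII-/-) against 1.79 FPKM (TβRII fl/fl) with serum, and 17.7 FPKM against 0.495 FPKM in serum-starved medium. Cyr61, a matricellular protein that is shed into urine after ischemia, was 3402 FPKM against 506 FPKM with serum and 2004 FPKM against 287 FPKM without. Dcdc2a, a marker of failed repair in mouse proximal tubule, was 13.2 FPKM (TβRII-/-) against 119 FPKM (TβRII fl/fl) with serum, and 38.5 FPKM against 140 FPKM in serum-starved medium. Cdh6, a cadherin of the developing proximal tubule, was 3.35 FPKM against 58.7 FPKM with serum and 1.69 FPKM against 47.5 FPKM without.

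The list of receptors and ligands of the 9 proteins also held genes linked to them less directly, such as Gas6, Hmmr and genes of enzymes that make or degrade hyaluronan. Of its 20 loci found, 13 were compared in each medium. With serum 5 were at least 2-fold lower and 2 higher in TβRII-/- cells (median -0.75), and without serum 2 were lower and 1 higher (median 0.05). Itgb3, a subunit of the osteopontin receptor αvβ3, was 0.211 FPKM (TβRII-/-) against 5.49 FPKM (TβRII fl/fl) with serum, and 0.148 FPKM against 1.24 FPKM in serum-starved medium. Itga9, which pairs with integrin β1 to bind osteopontin and VCAM-1, was 0.0956 FPKM against 2.15 FPKM with serum and 0.354 FPKM against 6.70 FPKM without. Gas6, which links phosphatidylserine on dying cells to receptor tyrosine kinases, was 0.537 FPKM against 10.9 FPKM with serum and 6.21 FPKM against 26.3 FPKM without. Hmmr, a hyaluronan receptor that also acts at the mitotic spindle, was 51.8 FPKM against 11.8 FPKM with serum and 12.99 FPKM against 12.5 FPKM without. The receptors of lipocalin 2, named for that role and outside the rule, were Slc22a17, with log2 ratios of -1.66 with and -0.90 without serum, and Lrp2 (megalin), with log2 ratios of 1.05 and 2.04.

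Homologs were read in the same way. Of 9 annexins compared, 1 was higher and 1 lower with serum, and 1 was higher without, shares near those of all loci (18.1% with and 14.7% without serum in either direction). Anxa2, which works at the plasma membrane with S100A10, was higher in both media like Anxa1, at 1357 FPKM (TβRII-/-) against 536 FPKM (TβRII fl/fl) with serum, and 1204 FPKM against 456 FPKM in serum-starved medium. Anxa6 was lower with serum (86.2 FPKM against 346 FPKM), whereas Anxa3 and Anxa5 had log2 ratios between 0.58 and 0.90 in both media, short of 2-fold. Of 6 SOX genes compared in each medium, none with serum and 1 without was higher, and 2 were lower in both. Sox8, of the same SoxE group as Sox9, was 0.508 FPKM (TβRII-/-) against 24.1 FPKM (TβRII fl/fl) with serum, and 0.801 FPKM against 22.04 FPKM in serum-starved medium. Sox12, a SoxC factor like Sox4, was 1.63 FPKM against 12.4 FPKM with serum and 2.18 FPKM against 10.4 FPKM without. Sox11, also SoxC, had log2 ratios of -0.63 and 0.01, and Sox5 was higher in TβRII-/- cells without serum at 1.78. Of 10 homologs of Havcr1 and Lcn2, Timd2 and Ptgds passed the minimum. Timd2, the nearest expressed gene before Havcr1, was 0.154 FPKM (TβRII-/-) against 2.07 FPKM (TβRII fl/fl) with serum, and Ptgds, a lipocalin that makes prostaglandin D2, was higher in TβRII-/- cells without serum (162 FPKM against 33.8 FPKM). Of 5 adhesion molecules compared, Ncam1 was lower in both media (log2 ratios of -2.22 and -1.94) and Mcam was higher in TβRII-/- cells without serum (1.87). L1cam, counted in a locus joined with other genes, and F11r stayed within 2-fold.

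The list of regulators of Lcn2 and Vcam1 held transcription factors, and also cytokines, receptors and inhibitors of signalling. Most of the 13 compared were within 2-fold without serum, where 2 were higher and none was lower. With serum 5 were lower and 1 was higher. The higher ones were the receptor gene Il6ra in both media and, named outside the rule, the inhibitor gene Nfkbia without serum. Their median log2 ratios were 0.10 without and -0.69 with serum. Cebpd, the gene of C/EBPδ, which binds the Lcn2 promoter, was 75.9 FPKM (TβRII fl/fl) against 16.1 FPKM (TβRII-/-) in serum-replete medium, and 13.8 FPKM against 24.5 FPKM in serum-starved medium. Socs3, a feedback inhibitor induced by STAT3, was 48.2 FPKM against 6.99 FPKM with serum and 7.27 FPKM against 14.6 FPKM without. Nfkbiz, a nuclear IκB protein needed for Lcn2 induction, was 27.7 FPKM against 5.62 FPKM with serum and 14.5 FPKM against 9.17 FPKM without. These 3, named for their large genotype ratios, were highest in the library where Lcn2 was highest. Of the rest compared, read outside the rule, so were Rela, Irf1, Il1r1 and Tnfrsf1a. Cebpb and Stat3 were highest in serum-starved TβRII fl/fl cells, Relb in serum-starved TβRII-/- cells, and Nfkb1, Nfkbia and Il6ra in serum-replete TβRII-/- cells. Without serum Cebpd and Socs3 had log2 ratios of 0.79 and 0.91. A link of any of these to the level of Lcn2 was not tested. Il6ra, a subunit of the interleukin 6 receptor, was higher in both media, at 1.35 and 1.02. Among 16 transcription factors of repair and dedifferentiation compared, 2 were higher and 4 lower with serum, and none was higher and 2 were lower without, with medians of -0.75 and -0.08. Snai2 (-1.63) and Foxj1 (-1.68) were lower with serum, and Foxm1, a factor of the cell cycle counted in a joined locus, was higher with serum (1.71).

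**Figure D4:**
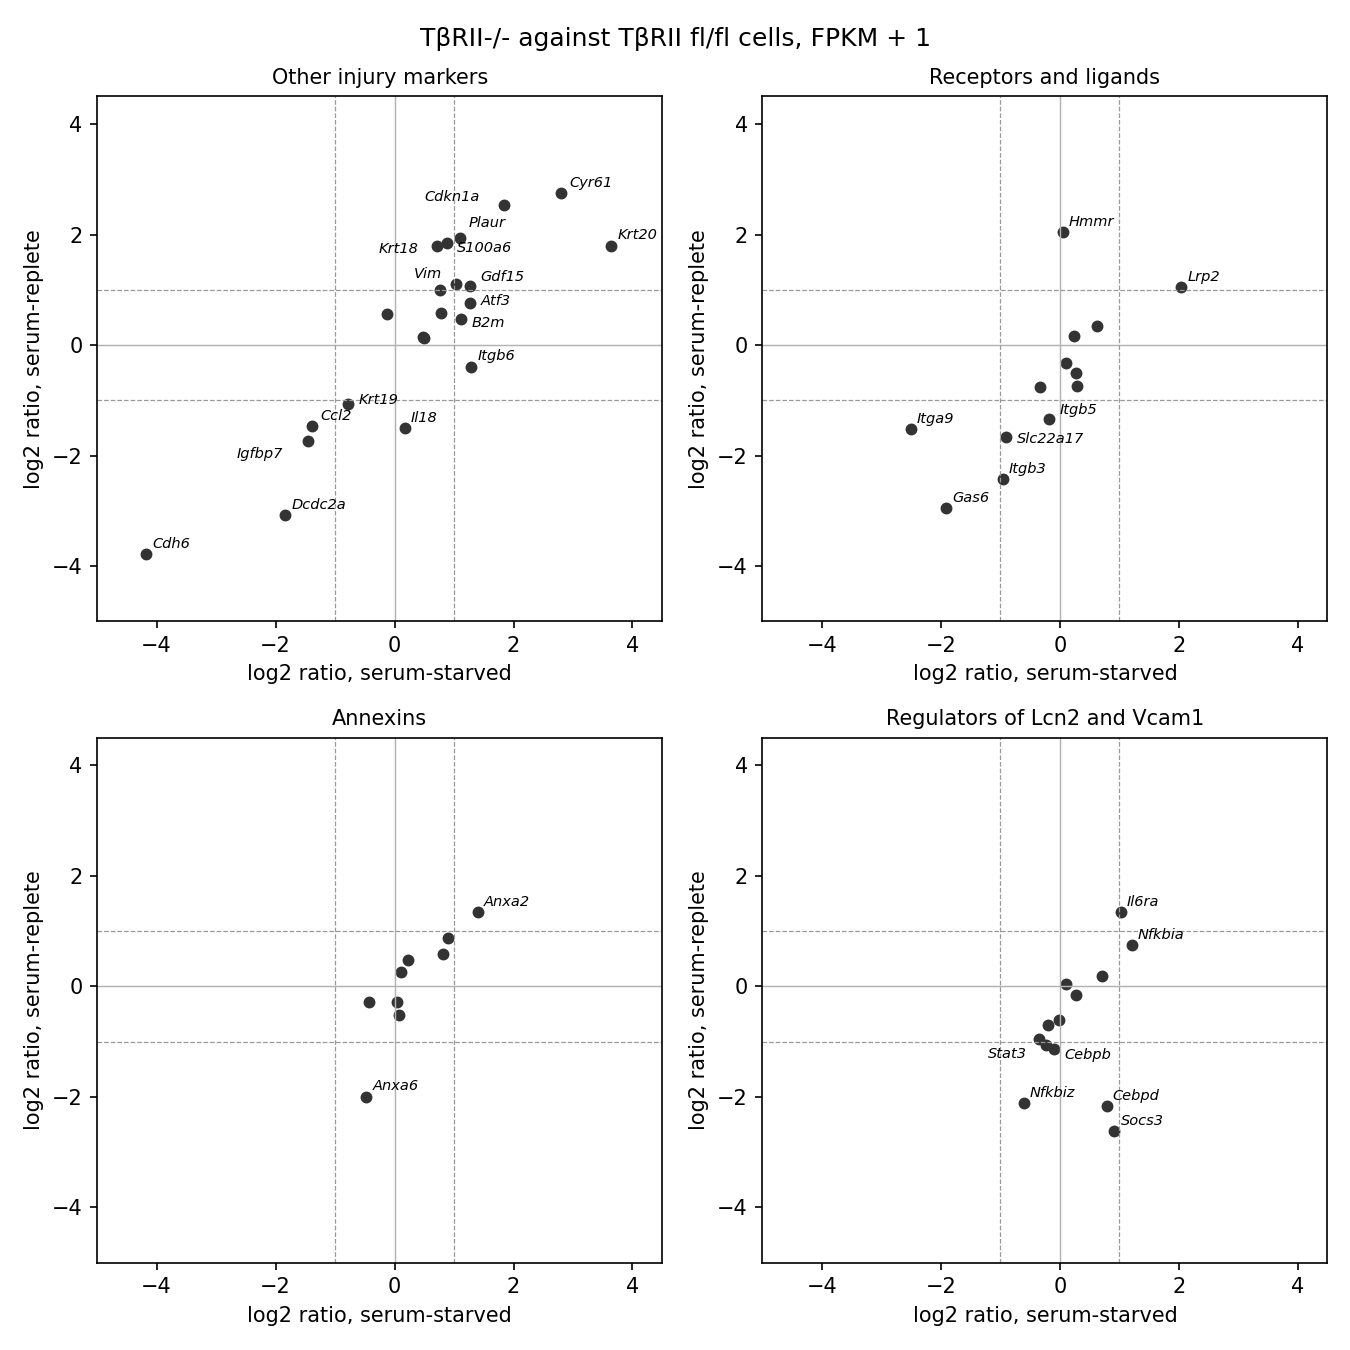
Log2 of (FPKM + 1) in TβRII-/- over TβRII fl/fl cells without serum (horizontal axis) and with serum (vertical axis) for 4 of the lists (other injury markers, receptors and ligands, annexins, and regulators of Lcn2 and Vcam1), with 1 point per gene compared in both media and names for those past 2-fold (dashed lines) in either. Of the genes plotted, Krt20 and Cyr61 lie high in both media, Cdh6 lies lowest, and Socs3 and Cebpd lie below -2 with serum and above 0 without.

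Genes with the most similar pattern were found by the distance of log2(FPKM + 1), centred on each gene, over the 4 libraries among 12847 loci. Lcn2 had no close match by this distance: the nearest, Adamts4, Tpm2 and the complement gene C3, lay at 1.59, 1.63 and 1.78. C3 was 613 FPKM (TβRII fl/fl) against 37.2 FPKM (TβRII-/-) in serum-replete medium, and 32.4 FPKM against 3.25 FPKM in serum-starved medium. Havcr1 lay nearest to S100g (0.34), the chemokine gene Ccl7 (0.59) and Gm2115 (0.77), Spp1 to Megf6, Gc and Ube2ql1 (0.37 to 0.40), and Vcam1 to Cd74, Adamts4 and Saa3 (0.51 to 0.63). The gene nearest to Clu was another of the 9, Vcam1, at 0.67, followed by Adam12 and Gm2115. Cd44 lay nearest to Gm15199, Ptprn and Cd68 (0.16 to 0.31), and Anxa1 to Gstt1, Gm26651 and Man1a (0.19 to 0.23). Sox9 and Sox4 had 215 and 518 loci within a distance of 0.5, whereas Lcn2, Clu and Vcam1 had 0 and Havcr1 had 1. Values were centred but not scaled, so the distance grows with the size of the changes. These counts thus do not give how common a pattern is. Sox9 lay nearest to 0610040B09Rik, Unc93b1 and Dnajb5, and Sox4 to Hspa2, Gm16001 and Fuk.

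The nearest expressed genes on either side of the 9 were read as well. Of 18 neighbours, 4 were lower by 2-fold or more and 1 was higher in TβRII-/- cells with serum, and of 15 compared without serum 1 was lower and 2 were higher, where 18.1% and 14.7% of all loci differed in either direction. Kcnj16, a potassium channel gene and the nearest expressed gene before Sox9, though 1754256 bases away, had the largest ratios toward lower values, -4.08 with and -2.25 without serum. Aldh1a1, a retinal dehydrogenase gene 211017 bases beyond Anxa1, was 13.7 FPKM (TβRII-/-) against 0.880 FPKM (TβRII fl/fl) with serum, and 24.5 FPKM against 1.33 FPKM in serum-starved medium. Timd2 lies 28019 bases before Havcr1. The neighbours of Lcn2, Spp1 and Vcam1 stayed within 2-fold between genotypes in both media.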

How the data were processed

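RNA-Seq values of 4 libraries of cultured IMCD cells were used, 1 library per condition. Per the labels, 30000000 reads of 50 bp were made per sample. According to the submitters' processing notes, the tools were Cuffdiff, Cufflinks and TopHat2 with build mm10 (versions and annotation release: not given in the sources used here, and neither is the use of strand). The authors deposited FPKM per gene locus (a level per transcript length and library size), scaled by Cuffdiff separately for each medium. The authors' own fold changes, p-values and q-values in the same tables, their lists of top hits and their category counts were not used.

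The 9 genes were read from rows of their own, and each was checked to have 1 such row. A locus entered a comparison if either of its libraries reached 1 FPKM. The measure was log2 of (FPKM + 1) in the first library over the second, and a gene was called at a log2 ratio of 1 or more in size. As each condition had 1 library, there was no statistical test, p-value or error. Genotypes were compared within a medium, and media were set side by side within a genotype although their tables were scaled separately. Alternatives were pseudocounts of 0.1 and 0.5, no filter, a filter of 5 FPKM, median centring and upper quartile scaling. The calculation was tested on simulated data, with planted changes larger than the call at loci of 5 FPKM or more and with little noise. Such a test checks the arithmetic only, and not low genes or the spread between replicates. For low genes with 1 transcript over 1500 bases, between 58.6% and 66.1% of values under 2.5 steps lay within 10% of a whole read, so reads were not recovered and read numbers are approximate.

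The members, the 8 lists of related genes and the 5 marker lists were chosen with earlier results of these data known. Besides the 9 genes, the text names up to 4 genes per list with the largest genotype ratio past the filter, the 3 genes closest to a member over the 4 libraries and the nearest expressed neighbours, and any other gene is said to be chosen otherwise. Some genes of the lists are not reported here by name. Gene models came from GENCODE vM21 and upstream sequences from RefSeq (GRCm38.p6). Python 3.11.15, numpy 2.4.6 and pandas 2.3.3 were used.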

Additional observations from a re-analysis of the deposited data

Results flagged for a closer look

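Sox9 and Sox4 had serum ratios of opposite sign in the 2 genotypes. Sox9 was lower without serum in TβRII fl/fl cells (log2 ratio of -0.32) and higher in TβRII-/- cells (0.89), a difference of 1.21. Sox4 was lower without serum in TβRII fl/fl cells (-0.20) and higher in TβRII-/- cells (1.03), a difference of 1.23. Each ratio compares 1 library with 1 library from separately scaled tables, and the difference between the genotypes was not tested.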

How the results depend on the processing

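Under the 6 alternatives, the counts of the 9 genes past 2-fold stayed within 1.5 times the values given in all 4 comparisons. The lowest counts came with the filter of 5 FPKM, 3 of 7 genes for genotype without serum, where Havcr1 left the comparison, and 4 of 7 for serum in TβRII-/- cells, where Havcr1 and Vcam1 left it. No called ratio changed sign. The size of low genes moved with the pseudocount: at 0.1 the ratio of Havcr1 between genotypes without serum was -3.49 in place of -1.84. With upper quartile scaling the ratio of Clu without serum became -1.02, past 2-fold. The serum ratio of Sox4 in TβRII-/- cells, 1.03 as given, was 0.90 with median centring and 0.97 with upper quartile scaling. No paired analysis was possible because each condition is 1 library, and for the same reason no replicate could be left out. The depth limits Havcr1 in serum-starved TβRII-/- cells most, at 0.201 FPKM, and Vcam1 in both serum-starved libraries.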
